A study of Caenorhabditis elegans and Caenorhabditis briggsae with 12 samples.

Results

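The genes described here are 5 genes of *C. elegans* and their *C. briggsae* orthologs, 10 genes in 5 pairs out of 20213 *C. elegans* and 21168 *C. briggsae* genes measured. The pairs are *abt-1* with *Cbr-abt-1*, *aqp-5* with *Cbr-aqp-5*, *catp-4* with *Cbr-catp-4*, *che-6* with *Cbr-che-6*, and *arrd-16* with *CBG30289*. They were chosen by their heat shock response in these same libraries, the change under heat in each species and the difference between the species. Their changes are therefore given as a description, and calls from the fits across all genes are given only as counts that describe the choice. Each gene of a pair has 1 partner in the other species, and 1317 such pairs were present in both files.

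RNA was sequenced from whole L2 larvae of the strains N2 (*C. elegans*) and AF16 (*C. briggsae*). Heat-shocked worms (HS) spent 30 min in a water bath at 34 °C, while non-heat-shocked controls (NHS) stayed at 20 °C, and each species had 3 biological replicates of both, 12 libraries in total. All groups were wild type, each species was represented by 1 strain, and every larva had been raised at the lower temperature. The study compared orthologs to learn which genes each species had placed under heat control, in particular where heat shock elements lie inside Helitron transposons.

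The values are normalized counts per gene. The authors estimated the reads of each gene's transcripts and divided them by factors that put the libraries of a species on a common scale. Levels can be compared between HS and NHS libraries of a species, but not between species. Depth, estimated from the spacing of the lowest values, lay between 28600000 and 52600000 reads per library. HS replicate 1 of *C. briggsae* stood apart, with correlations of 0.972 and 0.975 with the other HS libraries, compared to 0.986 between those, on log2 values. Results that rest on that library are given with and without it. As a check of the treatment, the chaperone gene *hsp-110* had a log2 fold change of 2.93 (SE 0.14) in *C. elegans*, and its ortholog one of 3.54 (SE 0.19) in *C. briggsae*.

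Most of these gene families handle traffic across membranes. ABC transporters of the A subfamily, to which ABT-1 belongs, use ATP to move lipids and related molecules. CATP-4 belongs to the P-type ATPases of the sodium pump type, which exchange sodium for potassium ions and work with a beta subunit. AQP-5 is an aquaporin, a channel for water and in some members for glycerol. CHE-6 is a subunit of a cyclic nucleotide-gated cation channel and is needed for the sensing of salts, a task of the ASE taste neurons. Arrestin domain proteins such as ARRD-16 are adaptors that, in yeast and mammals, help to bring membrane proteins into endocytosis and ubiquitin-dependent turnover.

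*abt-1* showed 60.3, 51.0 and 53.7 normalized counts in the HS libraries of *C. elegans*, against 3.93, 10.02 and 3.55 in the NHS libraries. All HS values lay above all NHS values, and NHS replicate 2 was the highest of the NHS libraries. The means were 55.0 ± 4.81 in HS and 5.84 ± 3.63 in NHS (SD, n = 3 each), a log2 fold change of 3.15 (SE 0.36). *Cbr-abt-1* showed 48.7, 25.9 and 27.4 in HS and 15.1, 20.8 and 17.5 in NHS. Its HS values were also above its NHS values, but the gap from the lowest HS to the highest NHS library was only 0.30 on the log2 scale, compared to 2.24 for *abt-1*. The log2 fold change of *Cbr-abt-1* was 0.85 (SE 0.30), and it was 0.57 (SE 0.27) without HS replicate 1, the highest of its libraries. The difference between the species, *C. elegans* minus *C. briggsae*, was 2.30 (SE 0.52) on the log2 scale, or 2.59 (SE 0.49) without that library.

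*catp-4* was close to silent without heat. The HS libraries of *C. elegans* held 60.3, 33.3 and 62.1 normalized counts, against 2.95, 0 and 1.77 in the NHS libraries. In reads, this was 140 over the HS libraries and 5 over the NHS libraries, and the ratio of the scaled sums was 34.3 with an exact 95% interval of 14.3 to 107.2 that covers counting error only. The NHS library at 0 allows up to 2.50 normalized counts, the worth of 3 reads. *Cbr-catp-4* showed 17.0, 1.08 and 3.58 in HS and 0, 0.946 and 0 in NHS, which is 14, 1 and 3 reads in HS and 1 read over all NHS libraries. The ratio was 24.7 with an exact interval of 3.90 to 1030, and without HS replicate 1 it was 8.05 with an interval of 0.796 to 396. The change of the *C. briggsae* gene rested on 1 library, and its lowest HS library and highest NHS library held 1 read each. On the scale of log2(normalized count + 1) the changes were 4.52 (SE 0.52) in *C. elegans* and 2.15 (SE 0.85) in *C. briggsae*, with a difference of 2.37 (SE 0.99). Without HS replicate 1, *Cbr-catp-4* fell under the minimum level for a fit of *C. briggsae* alone, and in the joint fit of both species the difference was 3.22 (SE 0.81).

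*aqp-5* showed 54.6, 39.5 and 55.2 normalized counts in HS against 21.6, 23.4 and 19.5 in NHS in *C. elegans*. The groups did not overlap, with means of 49.8 ± 8.88 in HS and 21.5 ± 1.94 in NHS (SD, n = 3 each) and a log2 fold change of 1.16 (SE 0.22). *Cbr-aqp-5* showed 12.2, 21.6 and 19.1 in HS against 35.5, 24.6 and 27.7 in NHS. Here the HS libraries were all below the NHS libraries, and HS replicate 1 was the lowest of them. The log2 fold change of *Cbr-aqp-5* was -0.72 (SE 0.29), or -0.49 (SE 0.26) without that replicate. The pair thus differed by 1.88 (SE 0.41), with the species on opposite sides of 0, and by 1.65 (SE 0.37) without HS replicate 1 of *C. briggsae*.

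*che-6* showed 37.3, 30.2 and 37.3 normalized counts in HS against 11.8, 11.7 and 12.4 in NHS in *C. elegans*, which gave means of 34.9 ± 4.13 in HS and 12.0 ± 0.392 in NHS (SD, n = 3 each). It had the tightest NHS group of the 5 *C. elegans* genes, with an SD of 3.28% of the mean, and a log2 fold change of 1.46 (SE 0.24). *Cbr-che-6* showed 43.6, 38.6 and 49.2 in HS against 47.8, 32.9 and 34.6 in NHS. In normalized counts it was the 1 gene of the 10 whose groups overlapped, though those of *Cbr-catp-4* tied at 1 read. The log2 fold change of *Cbr-che-6*, 0.20 (SE 0.22), was smaller than its SE. When the libraries were scaled to equal totals, the sign of this value turned (-0.18). The species difference was 1.27 (SE 0.37), the smallest of the 5.

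*arrd-16* showed 198.3, 199.2 and 165.6 normalized counts in HS against 42.5, 48.6 and 52.3 in NHS in *C. elegans*. The means were 187.7 ± 19.2 in HS and 47.8 ± 4.94 in NHS (SD, n = 3 each), with a log2 fold change of 1.95 (SE 0.15). *CBG30289*, its ortholog, showed 48.7, 46.4 and 56.0 in HS against 86.0, 93.7 and 108.9 in NHS. Every HS library was below every NHS library of *CBG30289*, and its log2 fold change was -0.92 (SE 0.17), or -0.90 (SE 0.18) without HS replicate 1. The species difference of 2.87 (SE 0.30) was the largest of the 5 and combined a higher HS level in *C. elegans* with a lower one in *C. briggsae*.

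**Figure D1:**
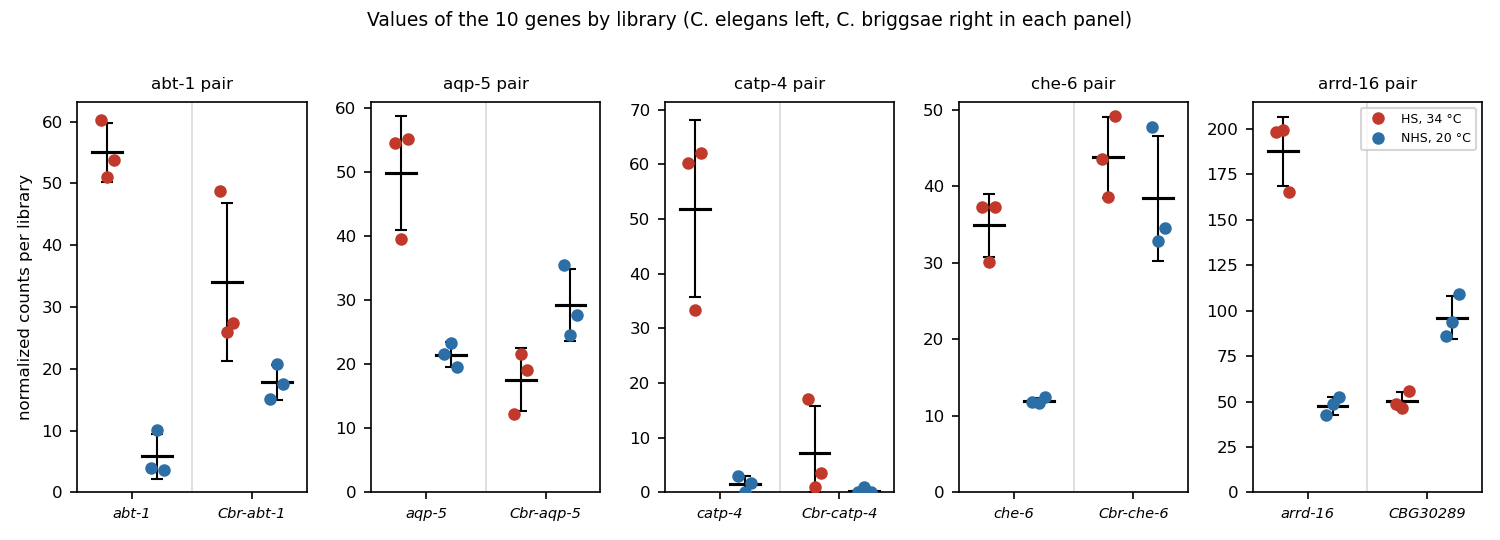
Normalized counts of each gene in each library (points), with group means (horizontal lines) and SDs (error bars, n = 3, drawn no lower than 0), HS left of NHS, and *C. elegans* left of *C. briggsae* in each panel. The *C. elegans* groups are apart in all 5 panels, while the *C. briggsae* groups overlap for *Cbr-che-6* and lie in the opposite order for *Cbr-aqp-5* and *CBG30289*.

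A gene counts as up or down where a limma fit across all genes of its species gave an adjusted p below 0.01 together with more than a 2-fold change. The thresholds are those of the study, which applied them to DESeq2 and not to limma. All 10 genes passed the filter for that fit, a mean of at least 2 normalized counts. All 5 *C. elegans* genes were called up, where 10.2% of the 17551 genes tested were up and 2.77% down. Of the *C. briggsae* genes 0 of 5 were called (4 of 5 had an unadjusted p under 0.05 in limma), where 4.50% of 18470 genes were up and 1.73% down. The HS libraries lay above the NHS libraries in 5 of 5 *C. elegans* genes, as they did in 30.6% of all *C. elegans* genes tested. In *C. briggsae* they lay above in 2 of 5 and below in 2 of 5, compared to 25.7% and 24.3% of all genes tested. The 2 above include *Cbr-catp-4*, whose groups tied at 1 read and were apart only after scaling. The species difference was called for 4 of 5 pairs, all but *catp-4*, where 32.0% of the 1317 pairs were called higher in *C. elegans* and 21.8% lower. Without HS replicate 1 of *C. briggsae* it was called for 5 of 5, and the call of the *che-6* pair was lost without any of 8 other libraries and with a replicate block. Since the pairs were selected on these contrasts, the counts describe the choice. A pair entered the table only with a gene that rose in either species, so the share among pairs is no background for all genes.

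Other pairs of the table had larger species differences. Ranked by the difference from high to low, *arrd-16* was at place 201, *catp-4* at 290, *abt-1* at 300, *aqp-5* at 404 and *che-6* at 569 of 1317. Among the other 745 pairs whose *C. elegans* gene was called up and whose *C. briggsae* gene was tested, the median log2 fold change was 2.45 in *C. elegans* and 0.79 in *C. briggsae*. A *C. briggsae* value below 0, as seen for *Cbr-aqp-5* and *CBG30289*, was found in 21.7% of them, and 5 of the 745 were called down. The 5 pairs therefore lie within a large group of pairs of the same kind. For *catp-4*, *che-6* and *arrd-16*, but not for *abt-1* and *aqp-5*, the study's table marks an upstream heat shock element inside a Helitron in *C. elegans*, a mark that 30 of the 1317 pairs carry. The mark was given only to *C. elegans* genes that the study listed as up-regulated under heat. Pairs with other *C. elegans* genes could not carry it. Of the 21 other marked pairs tested in both species, 20 had a *C. elegans* gene called up. Their median log2 fold changes, over all 21, were 2.24 in *C. elegans* and 0.50 in *C. briggsae*. Whether the mark goes with a species difference was not tested, since only genes that rose in *C. elegans* could be marked.

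**Figure D2:**
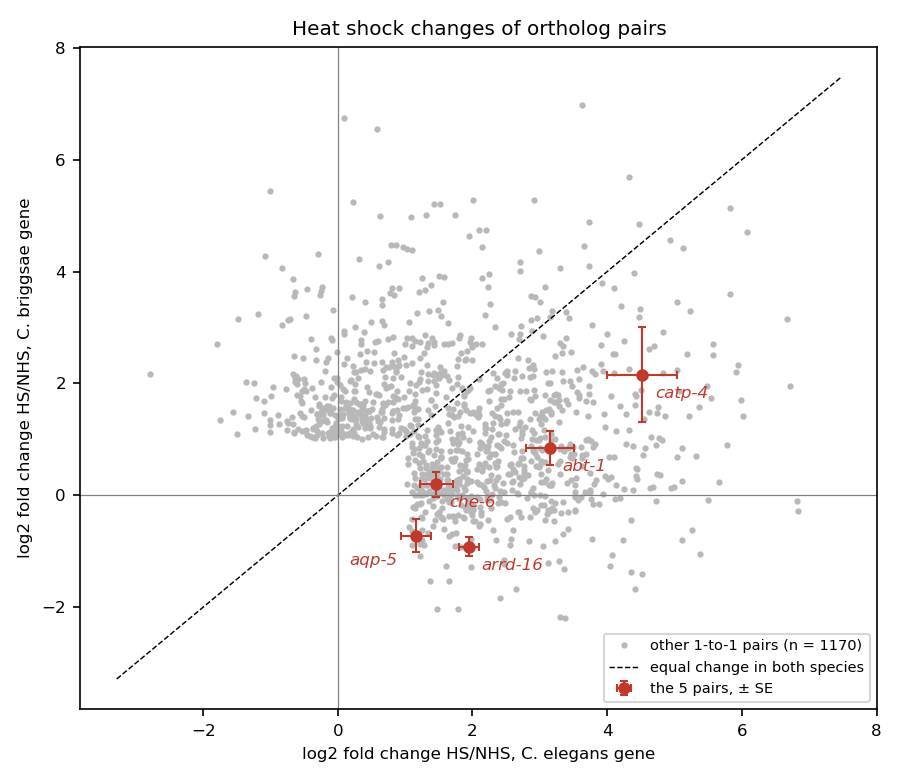
Log2 fold change of HS over NHS for the *C. elegans* gene (x axis) and the *C. briggsae* gene (y axis) of 1-to-1 ortholog pairs, with the 5 pairs in red (error bars, SE) and the 1170 other pairs tested in both species in gray. All 5 lie below the dashed line of equal change, *catp-4* highest on both axes and *aqp-5* and *arrd-16* below 0 in *C. briggsae*.

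The 5 *C. elegans* genes lay below the middle of the genes tested in level per kilobase, in HS and in NHS libraries alike. Per kilobase of merged exons, the HS level of *arrd-16* was 140.0 ± 14.3 normalized counts and its NHS level 35.7 ± 3.69 (SD, n = 3 each), above 49.4% of the genes tested in HS and 31.5% in NHS. *aqp-5* followed with 47.9 ± 8.56 in HS and 20.7 ± 1.87 in NHS per kilobase. *che-6*, *catp-4* and *abt-1* had 17.7 ± 2.10, 16.5 ± 5.15 and 11.7 ± 1.02 per kilobase in HS, and each neighbour in that order differed from the next by less than the larger SD. In NHS the order was *che-6* with 6.08 ± 0.199, *abt-1* with 1.24 ± 0.770 and *catp-4* with 0.502 ± 0.473, and *abt-1* and *catp-4* again differed by less than the larger SD. In whole larvae, a change in the number of cells that express a gene and a change in its RNA per cell cannot be told apart.

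The genes lie at 5 separate places of the genome (WBcel235, the assembly also known as ce11). *abt-1* spans chromosome IV, 10206189 to 10214911, and *che-6* spans 2104056 to 2111408 of the same chromosome, both on the minus strand. *aqp-5* (V, 10491743 to 10493256), *catp-4* (II, 14593581 to 14597657) and *arrd-16* (III, 12484732 to 12488341) lie on the plus strand. All are protein-coding, with 28 merged exons in *abt-1*, 13 in *che-6*, 8 in *catp-4*, 6 in *arrd-16* and 5 in *aqp-5*. Read estimates were whole multiples of 1 read for *aqp-5*, *catp-4* and *che-6*, but off by up to 0.41 reads for *arrd-16* and 0.08 for *abt-1* (and 0.35 for *Cbr-che-6*), so their reads were not all counted whole. *abt-1* shares its last 94 bases with the next gene on the same strand, *K04D7.6*. Reads of that stretch cannot be assigned with certainty to either gene, and *K04D7.6* had 51.7, 33.3 and 45.5 normalized counts in HS against 76.7, 88.5 and 90.5 in NHS (log2 fold change -0.97, SE 0.20), opposite in direction to *abt-1*.

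Of the 10 nearest protein-coding genes, 1 on each side of every *C. elegans* gene, 1 was up, 1 was down and 8 were not called, which for the genes up is about the share over all genes (10.2% up, 2.77% down). The gene up was *Y49E10.25*, 338 bases downstream of *arrd-16* on the other strand, with 10.5, 7.28 and 17.9 normalized counts in HS against 0.983, 1.67 and 1.77 in NHS (log2 fold change 2.31, SE 0.44, limma adjusted p = 0.0025). Its call was lost without HS replicate 1 or NHS replicate 1 of *C. elegans* (adjusted p up to 0.012). The gene down was *C01G12.7*, 1688 bases upstream of *catp-4* on the other strand (log2 fold change -1.13, SE 0.22, limma adjusted p = 0.0030). It had 105.3, 138.3 and 71.8 normalized counts in HS against 210.4, 244.7 and 217.3 in NHS, the reverse of *catp-4*, and lost its call without HS replicate 1 or 3 or any NHS library (log2 fold change -1.35 to -0.88), and with equal upper quartiles (-0.92). The other 8 ranged from -0.97 for *K04D7.6* to 0.22 for *C23H5.15*, and both flanks of *abt-1*, *aqp-5* and *che-6* were among them. Some of them passed the threshold of adjusted p and missed only that of the fold change. These were *K04D7.6* (limma adjusted p = 0.0037), *C23H5.8* (-0.35, adjusted p = 0.0034) and *cccp-1* (-0.35, adjusted p = 0.0045), all lower in HS. *K04D7.6* was called down with equal totals.

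**Figure D3:**
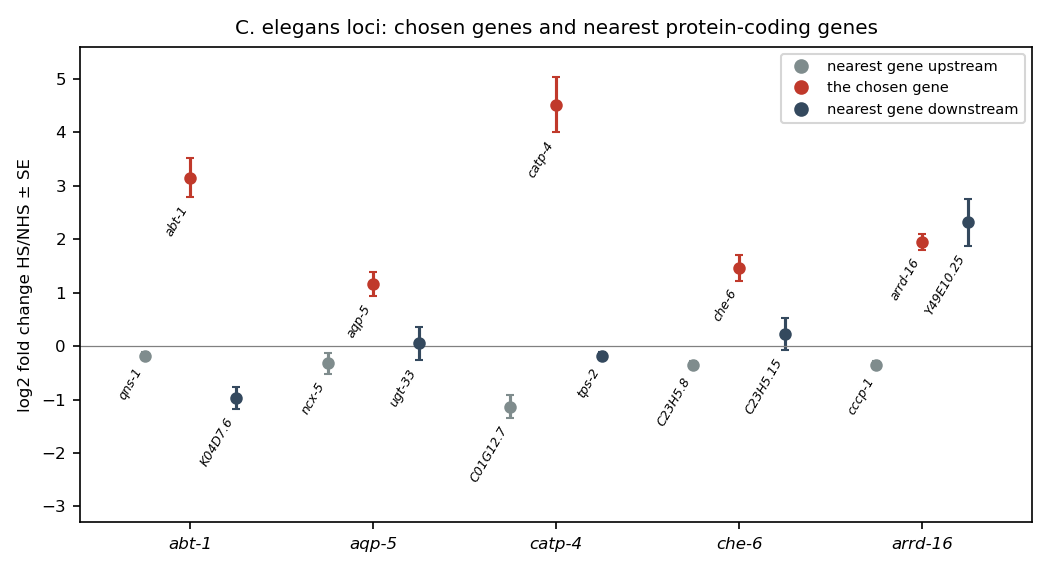
Log2 fold change of HS over NHS (points, with SE as error bars) for each of the 5 *C. elegans* genes and the nearest protein-coding gene upstream (left) and downstream (right) of it. *Y49E10.25* is the 1 neighbour on the same side of 0 as the gene it flanks by more than a log2 fold change of 1.

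Family members of these genes were taken from lists of named genes without the 5 themselves. The counts called in *C. elegans* stand against 10.2% up and 2.77% down over all genes tested. Of 53 other ABC transporters 4 were up, 1 was down and 48 were not called. Those up included *wht-4*, *wht-3* and *wht-6*, which encode transporters of the ABCG kind, with log2 fold changes of 4.31 (SE 0.40, limma adjusted p = 5.3e-05), 3.29 (SE 0.21, adjusted p = 7.5e-06) and 2.87 (SE 0.46, adjusted p = 9.3e-04). *abch-1* was down, with 25.9 ± 5.93 normalized counts in HS and 79.2 ± 23.0 in NHS (SD, n = 3 each; log2 fold change -1.56, SE 0.27). Within the A subfamily 0 of the 4 other genes were called (3 had an unadjusted p under 0.05 in limma), and they ranged from -0.56 to 0.82.

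Of 20 other P-type ATPases 2 were up, both of them alpha subunits of the sodium pump type like *catp-4*. *catp-3* had 892.7 ± 114.0 normalized counts in HS and 309.9 ± 79.5 in NHS (SD, n = 3 each; log2 fold change 1.55, SE 0.20, limma adjusted p = 0.0011). *catp-2* was sparse, with 13.8 ± 6.03 in HS and 1.44 ± 1.72 in NHS (log2 fold change 2.78, SE 0.58, adjusted p = 0.0038), and its call was lost without HS replicate 1 or 3 or NHS replicate 1 or 3 (adjusted p up to 0.016). The main alpha subunit *eat-6* had a log2 fold change of 0.35 (SE 0.06), below the fold threshold, and *catp-1* one of -0.08 (SE 0.07). Of the 3 beta subunits 0 were called (2 at an unadjusted p under 0.05 in limma), with *nkb-2* highest at 1.47 (SE 0.55).

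Of 10 other aquaporins 0 were called (3 at an unadjusted p under 0.05 in limma), and all lay between -0.01 and 0.41, below the 1.16 of *aqp-5*. Of 5 other cyclic nucleotide-gated channel subunits 0 were called (0 at an unadjusted p under 0.05 in limma). Among them *tax-4* and *tax-2* form the main sensory channel, and their changes on the log2 scale were 0.38 (SE 0.21) for *tax-4* and -0.19 (SE 0.22) for *tax-2*. Of 11 genes used for salt taste besides *che-6*, 1 was up, *che-1*, the transcription factor that sets the identity of the ASE neurons (16.7 ± 7.93 normalized counts in HS and 3.46 ± 1.09 in NHS, SD, n = 3 each; log2 fold change 1.92, SE 0.42, limma adjusted p = 0.0047). The *che-1* call was lost without HS replicate 1 or 3 or NHS replicate 1 or 2 (adjusted p up to 0.020).

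Of 24 other arrestin domain genes 2 were up and 3 were down. *arrd-8* had 63.4 ± 12.1 normalized counts in HS and 1.48 ± 0.430 in NHS (SD, n = 3 each; log2 fold change 4.70, SE 0.31, limma adjusted p = 9.6e-06), and the log2 fold change of *arrd-3* was 3.16 (SE 0.24, adjusted p = 2.0e-05). *arrd-28* and *arrd-15* were down, with -1.36 (SE 0.19, adjusted p = 5.2e-04) and -1.24 (SE 0.16, adjusted p = 2.8e-04). *arrd-16* thus sat between *arrd-3* and the many family members near 0, and the family as a whole had a median of -0.09, against 0.04 for all genes tested.

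**Figure D4:**
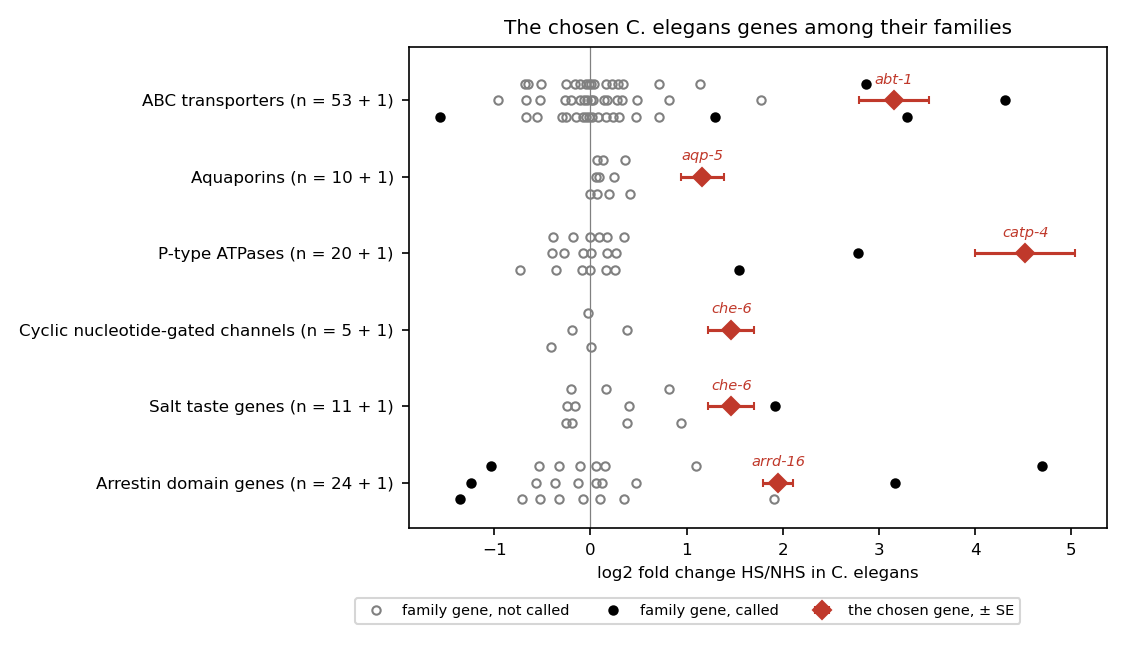
Log2 fold change of HS over NHS in *C. elegans* for the genes of 6 lists (circles, filled where called) and for the gene of interest in each (red diamonds, with SE), where n counts the other genes tested plus that gene. *aqp-5* and *che-6* lie beyond every other aquaporin and channel subunit, while *abt-1* and *arrd-16* have family members with larger changes.

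Family genes with the largest changes among those called in each list, in either species, were also compared as pairs. Only 3583 *C. briggsae* genes have a name in the tables used. Of 9 such pairs, the species difference was called higher in *C. elegans* for 3 and lower for 2. This is about the share over all 1317 pairs (32.0% higher and 21.8% lower). The 9 are not all pairs with a called family gene. The ABC transporter *pgp-7* was called up in *C. elegans* with a smaller change and was left out. Its pair had log2 fold changes of 1.29 in *C. elegans* and -0.29 in *C. briggsae*, a difference of 1.59. A gene of each pair had been called in these same libraries, so the differences are no independent tests. The *wht-6* pair rose in both species, with log2 fold changes of 2.87 (SE 0.46) in *C. elegans* and 3.13 (SE 0.22) in *C. briggsae* and a difference of -0.26 (SE 0.54, limma adjusted p = 0.65). The *catp-3* pair also rose mainly in *C. elegans*. *Cbr-catp-3* had 219.6 ± 104.2 normalized counts in HS and 270.5 ± 42.8 in NHS (SD, n = 3 each; log2 fold change -0.41, SE 0.36), and the species difference was 1.96 (SE 0.44, limma adjusted p = 0.0014). The HS libraries of *Cbr-catp-3* (320.2, 112.2 and 226.5) overlapped its NHS libraries (236.5, 256.5 and 318.6), and HS replicate 1 was the highest of all. With 1 library left out, the species difference ranged from 1.54 to 2.30. The *wht-3* pair was called up in both species but by less in *C. briggsae* (3.29 and 1.60, difference 1.69, SE 0.39, adjusted p = 0.0017). The *arrd-8* pair was also up in both (4.70 and 2.66), with a difference of 2.04 (SE 0.60, adjusted p = 0.0075) that lost its call when any of 10 of the 12 libraries was left out (adjusted p up to 0.022). The differences of 1.183 for *che-1* (SE 0.55, limma adjusted p = 0.064) and 1.57 for *catp-2* (SE 0.89, adjusted p = 0.12) stayed short of the threshold.

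The calls of *Cbr-wht-3* and *Cbr-arrd-8* were lost when any *C. briggsae* library but HS replicate 1 was left out (adjusted p up to 0.021 and 0.028). In 3 pairs the *C. briggsae* gene was up and the *C. elegans* gene was not called, opposite to the chosen pairs. *Cbr-gcy-22*, a receptor guanylate cyclase of the salt taste list, was up, with 452.4 ± 85.2 normalized counts in HS and 158.1 ± 5.06 in NHS (SD, n = 3 each; log2 fold change 1.49, SE 0.15, limma adjusted p = 8.3e-04). *gcy-22* had a log2 fold change of -0.25 (SE 0.15) in *C. elegans*, and the difference was -1.74 (SE 0.29, limma adjusted p = 1.4e-04). The ABC transporter pair *mrp-2* had log2 fold changes of -0.07 (SE 0.07) in *C. elegans* and 1.16 (SE 0.18, adjusted p = 0.0048) in *C. briggsae*, with a difference of -1.23 (SE 0.27, limma adjusted p = 0.0011). The arrestin domain pair *arrd-24* had 0.48 (SE 0.39) in *C. elegans* and 2.23 (SE 0.33, adjusted p = 0.0028) in *C. briggsae*, and its difference of -1.75 (SE 0.54, limma adjusted p = 0.0102) missed the threshold, but passed it with equal totals, with a replicate block and without some single libraries. The calls of *Cbr-mrp-2* and *Cbr-arrd-24* were lost when any *C. briggsae* library but HS replicate 1 was left out (adjusted p up to 0.023 and 0.017), and that of *Cbr-mrp-2* also with equal totals (0.77). The 2 other *C. briggsae* aquaporins with a name had log2 fold changes of -0.17 and 0.01, compared to -0.72 for *Cbr-aqp-5*.

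Some pairs of the table moved through the 12 libraries much as the 5 did. Likeness was taken as the Euclidean distance between log2 values, each minus the NHS mean of its species, over 12 values and 1316 other pairs. For *che-6* the nearest pairs were *klc-1* (distance 0.64), *glb-33* (0.68) and *ztf-15* (0.68), against a median of 3.59 over all pairs. For *arrd-16* they were *Y48C3A.5* (0.89), *cpt-3* (0.96) and *R07B1.11* (0.97), and for *aqp-5* they were *memi-3* (0.94), *ccep-290* (1.02) and again *R07B1.11* (1.04). All 5 of these names stand for pairs with a positive value in *C. elegans* and a negative one in *C. briggsae*, for example 1.65 and -0.73 for *R07B1.11*. Since the distance was taken over these same changes, the shared signs largely follow from the choice. For *abt-1* the nearest were *F07A11.1* (0.99), *R03G8.4* (1.11) and *Y38H8A.4* (1.15). For *catp-4* they were *C56C10.6* (1.78), *col-95* (2.00) and *T27E4.1* (2.19). The median distance over all pairs was 6.45 for *catp-4*, 4.89 for *arrd-16*, 4.66 for *aqp-5* and 3.86 for *abt-1*. With a pseudocount of 5 in place of 1, 0 of the 3 nearest pairs of *che-6* were among its 3 nearest again, and 1 of 3 for *abt-1* and *catp-4*.

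None of the 6 lists of larval tissue markers had a gene at 0 in every *C. elegans* library. Of 16 markers tested for muscle, intestine, neurons, hypodermis, pharynx and germline, 0 were called (12 had an unadjusted p under 0.05 in limma). Over all *C. elegans* genes tested, 10.2% were up and 2.77% down. The 3 hypodermis markers summed to between 2633 and 5358 normalized counts in HS and between 4523 and 9360 in NHS. The 3 neuron markers summed to between 2236 and 2366 in HS and between 2928 and 3097 in NHS. They are not specific to the taste neurons, and a part of cell numbers in the change of *che-6* was not tested. Genes for yolk proteins of the adult were higher under heat: 5 of 6 tested genes of the yolk and sperm list were up (3 to 5 when 1 library was left out), and the list summed to between 159.7 and 280.2 in HS and between 48.6 and 63.9 in NHS, with the sperm gene *msp-3* at 0 in every library. The 5 *C. elegans* genes rose in the same libraries as this list, and its part in their change was not tested.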

How the data were processed

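Whole-larva RNA-seq values were taken from the deposited tables of normalized counts, which are signal values and not whole counts. The authors made them from stranded total RNA libraries with Salmon 0.13.1 and DESeq2 1.18.1, for each species separately. Values were read as log2(normalized count + 1), and genes with a mean of at least 2 were tested with limma 3.58.1 (R 4.3.3, statmod 1.5.0; trend and robust variances, two-sided, Benjamini-Hochberg over all genes). The species difference was fitted on 1317 ortholog pairs over the 12 libraries with 4 group means. Tests that need counts were not run, since 89.1 to 96.9% of low values were whole reads within 0.05. Depth was 28600000 to 52600000 reads, and intervals cover counting error only. One *C. briggsae* column carries a strain name with 1 digit changed and was taken as NHS replicate 3. Columns not used numbered 0. The submitters' notes give ce11 as the build, and the build of the *C. briggsae* transcripts was not stated there.

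The members and the lists were chosen with earlier results of these data known. Named genes were the 10 members, up to 4 called genes with the largest change in each family list and close paralogs, the nearest gene on each side, and the 3 most alike pairs. Positions came from the WBcel235 annotation. Names and pairs came from that annotation and the study's tables, whose own fold changes and p-values were not used. Alternatives were other pseudocounts (0.5 and 5), leaving out the filter or raising it to a mean of 10, equal totals, equal upper quartiles, a replicate block, other thresholds and leaving out each library. The fits were also run on simulated data, with changes placed only in genes with an NHS mean of at least 10. In *C. briggsae* they were placed only outside the ortholog pairs, and no result given here rests on that run. That run does not cover genes as sparse as *catp-4*, *abt-1* and *Cbr-catp-4*, whose NHS means were lower. Tables were made in Python 3.11.15 with pandas 2.3.3, scipy 1.17.1 and numpy 2.4.6.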

Additional observations from a re-analysis of the deposited data

Results flagged for a closer look

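In the *aqp-5* pair all HS libraries were above the NHS libraries in *C. elegans* and all were below them in *C. briggsae*, with a difference of log2 fold changes of 1.88. The pair was selected on this difference, so its call in the fit over all pairs is no independent test. The *arrd-16* pair showed the same opposite order, with a difference of 2.87, and was selected on it too. Among the family pairs, limma gave a species difference of 1.96 for *catp-3*, 1.69 for *wht-3* and 2.04 for *arrd-8*, all larger in *C. elegans*. The call for *arrd-8* was lost without any of 10 libraries. Differences in the other direction, larger in *C. briggsae*, were -1.74 for *gcy-22* and -1.23 for *mrp-2*. These pairs were named because a gene of each was called up in the same libraries, so their differences are no independent tests either. Single values within groups of 3 libraries were not checked for outliers.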

How the results depend on the processing

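The log2 fold changes of the 10 genes kept their direction under every alternative run, except *Cbr-che-6* with equal totals (-0.18). *Cbr-catp-4* could not be fitted with a mean of at least 10 or without HS replicate 1, where it fell under the filter. With 1 library left out they ranged from 2.92 to 3.56 for *abt-1*, 3.95 to 4.94 for *catp-4*, 1.08 to 1.32 for *aqp-5*, 1.41 to 1.56 for *che-6* and 1.87 to 2.04 for *arrd-16*, and from 0.57 to 1.01, 1.99 to 2.86, -0.88 to -0.49, 0.10 to 0.36 and -0.996 to -0.826 for their orthologs in the same order. The differences of the 5 pairs stayed positive under all alternatives, between 1.05 for *che-6* with a pseudocount of 5 and 3.22 for *catp-4* without HS replicate 1 of *C. briggsae*. A pseudocount of 5 lowered *catp-4* to 3.09 and *abt-1* to 2.52. Equal totals moved the median of all genes to -0.32 in *C. elegans* and -0.37 in *C. briggsae*, against 0.04 and 0.01, and equal upper quartiles moved it to 0.25 and 0.06. Relative to those medians the 5 genes moved little, but with equal totals *aqp-5* (0.82) was no longer called and *CBG30289* (-1.30) was called down. *aqp-5* also lost its call without HS replicate 1, NHS replicate 1 or NHS replicate 3, and the difference of the *che-6* pair without any of 8 libraries.

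Across all genes, *C. elegans* had 1791 up and 486 down, which became 2765 and 2266 with no minimum fold change, 1129 up with a mean of at least 10, 1329 down with equal totals, 251 down with equal upper quartiles, and 1137 to 1611 up and 338 to 595 down with 1 library left out. *C. briggsae* had 832 up and 320 down, which became 1459 and 594 at an adjusted p under 0.05, 1501 and 1285 with no minimum fold change, 1479 down with equal totals, and 348 to 1228 up and 68 to 649 down with 1 library left out, highest without HS replicate 1. Pairs called higher in *C. elegans* numbered 352 to 506 and lower 238 to 320 with 1 library left out.

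The labels name no shared batch, and replicate numbers were not used as pairs in the main fits. Same-numbered HS and NHS libraries deviated together by correlations of 0.021 to 0.149. These were weak, but all lay above those of libraries with other numbers, -0.104 to 0.017. With the replicate block, 1916 genes were up and 627 down in *C. elegans*, 724 and 338 in *C. briggsae*, 421 pairs were higher and 282 lower in *C. elegans*, and 3 of 5 chosen pairs were called.

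Genes near 0 changed sign in some settings, namely with equal totals *eat-6* (-0.010), *ugt-33* (-0.30) and *C23H5.15* (-0.12), with equal upper quartiles *catp-1* (0.13), *tax-2* (0.018), *qns-1* (0.037) and *tps-2* (0.031), and with 1 library left out *ugt-33* (-0.20 to 0.32), *C23H5.15* (-0.017 to 0.48) and the *wht-6* difference (-0.60 to 0.11). The settings for likeness were chosen after seeing the data. With as few reads as *Cbr-catp-4* had, the interval of its ratio was wide, 3.90 to 1030, or 0.796 to 396 without HS replicate 1. The smallest change that such a gene could show was not computed.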
